A study of Homo sapiens with 6 samples.

Results

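The genes of the proteasome, the protease that degrades ubiquitin-tagged proteins, were examined in F36P, a cytokine-dependent human leukaemia cell line with erythroid features. Members were the rows of the deposited table whose symbol begins with PSM, a letter from A to G and a digit, which gave 63 of 16315 genes. Of these, 47 encode proteasome subunits, activators, an inhibitor or assembly chaperones. The other 16 rows are 10 pseudogenes, 4 antisense or long non-coding RNAs and 2 proteins that share the prefix. Of the 63 rows, 61 reached the mean of 1 CPM, a count scaled to the library total, needed for testing, among them all 47 of the protein-coding proteasome genes. The CPM values given below also carry edgeR's TMM factor, which adjusts each library total for its composition.

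The sgHDAC7 libraries came from F36P cells given a guide RNA (sg) that directs gene knockout to HDAC7, a histone deacetylase of class IIa, and are labelled as knockout. The sgNT libraries came from F36P cells transduced with a non-targeting guide and labelled as wild type. Both groups carried a puromycin resistance plasmid, were selected in 1 µg/ml puromycin for 4 days, and held 3 libraries each, labelled as biological replicates. Whether the cells were clones, and how many guides were used, is not given in the sources used here. HDAC7 messenger RNA averaged 226 ± 28.0 CPM over the sgHDAC7 libraries, against 457 ± 6.51 CPM over the sgNT libraries (SD, n = 3 each; log2 -1.02 ± 0.09, SE, edgeR adjusted p = 0.00139). Transcript was thus still counted in all 3 of the sgHDAC7 libraries. Library totals ran from 11645003 to 12521195 counts in sgHDAC7 and from 10039693 to 11149179 counts in sgNT. The erythroid factors GATA1, KLF1 and TAL1 and the fetal globin gene HBG2 were present in every library. Of 8 erythroid markers 0 were called by the test given below. With a term for replicate 1, 3 of the 8 were called higher, beside 5.78% of all genes. These were HBG2 (log2 fold change 0.50, edgeR adjusted p = 0.000993), the transferrin receptor TFRC (0.21, adjusted p = 0.0229) and the erythropoietin receptor EPOR (0.29, adjusted p = 0.023). The other fetal globin gene, HBG1, was not called with that term (0.14, edgeR adjusted p = 0.642). HBG1 spread widely, with 1039, 887 and 1719 CPM in sgHDAC7 against 1052, 1084 and 1156 CPM in sgNT. How reads were divided between the HBG1 and HBG2 rows was not tested. The part of these markers in the proteasome values was not tested. The B cell marker CD79A spanned 12.3 to 18.7 CPM in sgHDAC7, against 15.6 to 16.7 CPM in sgNT. The monocyte marker LYZ spanned 77.6 to 95.4 CPM in sgHDAC7, against 80.1 to 105 CPM in sgNT. Replicate 1 of each group stood apart from replicates 2 and 3, so values from a fit with a term for replicate 1 are given where they change a call.

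As background, the proteasome is a barrel built of stacked rings. The outer rings hold alpha subunits that gate the entrance, and the inner rings hold beta subunits, of which some carry the protease sites. A regulatory particle sits on the barrel. Its ATPase ring unfolds substrates, and its non-ATPase subunits bind ubiquitin chains and remove them. Other activators can replace the regulatory particle, and chaperones guide assembly. Cells raise the genes of this complex together through the transcription factor NFE2L1 when proteasome activity is short, and interferon swaps the catalytic beta subunits for the immunoproteasome set. Red cell precursors rely on the ubiquitin system while they remodel their protein content.

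No proteasome gene passed the test between sgHDAC7 and sgNT, and most differences were small. None of the 61 tested members was called higher or lower by edgeR's quasi-likelihood test, with a Benjamini-Hochberg adjusted p under 0.05 as the threshold. Over all 13841 tested genes, 1.16% were called higher and 1.70% lower in sgHDAC7, so a count of 0 among 61 is near this background. At an unadjusted p under 0.05, 6 of the 61 members were higher and 0 lower, beside 9.18% of all genes higher and 9.99% lower. The count of higher members is thus near the background, while the count of 0 lower is below it, a skew that was not tested. The median log2 fold change of the 47 protein-coding genes was 0.05, against -0.0016 for all genes tested, and 36 of the 47 values were above 0, against 6876 of 13841 genes. For 43 of the 47 the 95% interval of the log2 fold change lay between -0.5 and 0.5. The wider intervals belonged to PSMB9, PSMB10, PSMC1 and PSMA8, the 4 lowest genes per coding length. With the replicate 1 term added, PSMD11, PSMD1 and PSME3 were called higher (3 members) and 0 were called lower, beside 5.78% of all genes higher and 6.81% lower. In bulk RNA, fewer cells of a kind and less RNA per cell cannot be told apart.

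The 47 genes together took 6713, 6802 and 6997 CPM in the sgHDAC7 libraries and 6687, 6469 and 6490.5 CPM in the sgNT libraries. On this TMM-adjusted scale the sgHDAC7 values all lay above the sgNT values, by a narrow margin over sgNT replicate 1. As plain shares of all counts, without the TMM factor, they took 0.669%, 0.677% and 0.690% in sgHDAC7 against 0.674%, 0.646% and 0.654% in sgNT, and the groups overlapped. The groups did not overlap in 10 of the 61 tested members, all of them higher in sgHDAC7. Over all genes 13.0% were higher without overlap and 12.2% lower, so the count of higher members is near this background. The count of lower members, 0, is below it, and this skew was not tested. The 10 were PSMC3, PSMC4, PSMC5, PSMC6, PSMD1, PSMD2, PSMD4, PSMD11, PSME3 and the pseudogene PSMC1P1, named here after their values were seen. They hold 4 ATPases and 4 non-ATPase subunits of the regulatory particle and no gene of the core rings, a division by role that was not tested. With its pseudogene row PSMC6P1 added, PSMC6 did overlap between the groups. The sums were 142, 136 and 152 CPM in sgHDAC7 against 129, 143 and 138 CPM in sgNT.

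**Figure D1:**
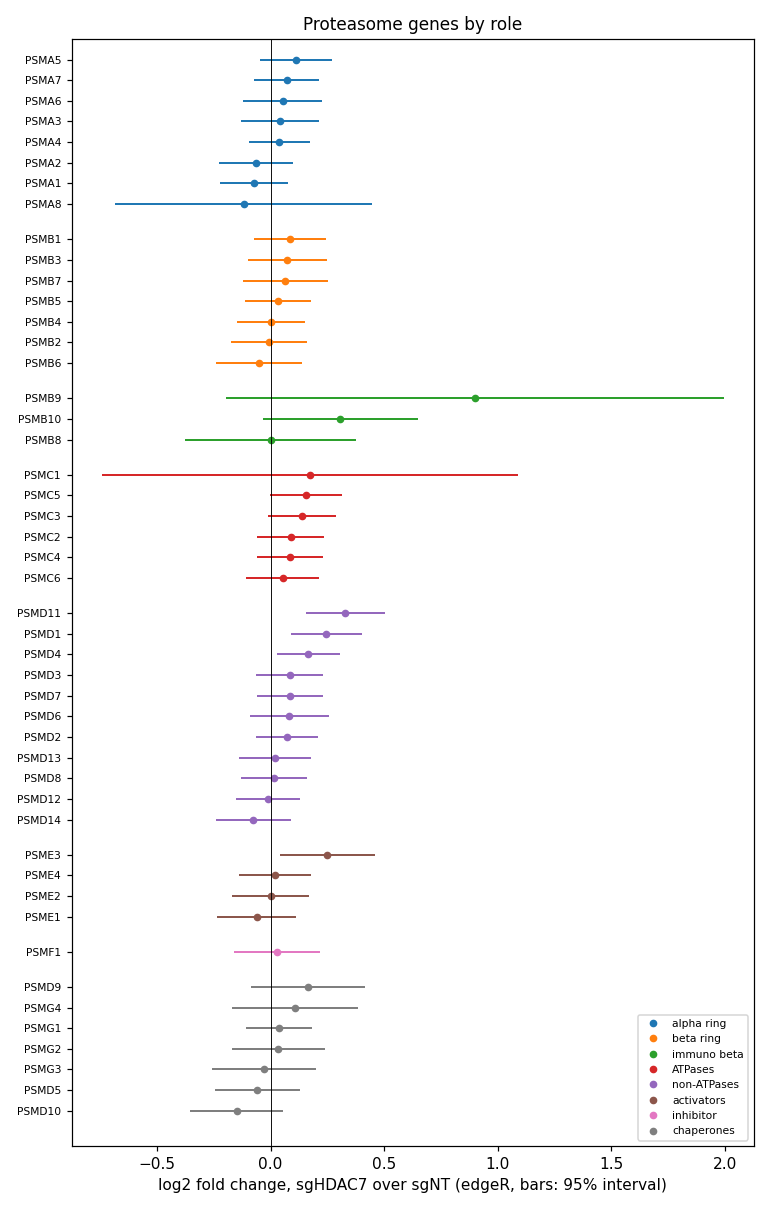
Log2 fold change of each tested protein-coding proteasome gene, sgHDAC7 over sgNT, from the edgeR fit on 3 libraries a group, with its 95% interval as a bar and genes ordered by role and value. Most points lie close to 0, PSMD11 is at 0.33 and PSMD1 and PSME3 at 0.25, and the widest intervals are those of the low genes PSMB9 and PSMC1.

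The alpha ring genes differed little between the groups. Of 8 genes, 0 were called, and the log2 fold changes ran from -0.12 for PSMA8 to 0.11 for PSMA5. PSMA5 had 118, 119 and 127 CPM in sgHDAC7 against 119, 107 and 111 CPM in sgNT, with overlapping groups. The difference was 0.11 ± 0.07 on the log2 scale (SE, edgeR adjusted p = 0.419, 95% interval -0.04 to 0.27). PSMA7, the highest alpha gene per length, had 296, 278 and 301 CPM in sgHDAC7 against 288, 271 and 274 CPM in sgNT. PSMA8, a form of the same ring position known from male germ cells, had 3.14, 4.92 and 4.78 CPM in sgHDAC7 against 5.63, 4.22 and 4.09 CPM in sgNT. Per kilobase of coding sequence PSMA8 stood at 1.43% ± 0.35 of PSMA7 in sgHDAC7 and at 1.62% ± 0.24 in sgNT (SD, n = 3 each).

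The same held for the constitutive beta ring genes. None of 7 was called, the log2 fold changes ran from -0.05 for PSMB6 to 0.09 for PSMB1, and no 95% interval reached beyond 0.25 in either direction. PSMB5, PSMB6 and PSMB7 encode the catalytic subunits. PSMB5, the target of the drug bortezomib, had 166, 172 and 168 CPM in sgHDAC7 against 174, 162 and 159.5 CPM in sgNT (log2 fold change 0.03 ± 0.06, edgeR adjusted p = 0.831). PSMB6 had 52.6, 52.4 and 57.6 CPM in sgHDAC7 against 60.1, 54.4 and 53.9 CPM in sgNT (log2 fold change -0.05 ± 0.08, edgeR adjusted p = 0.798). PSMB7 had 98.3, 94.4 and 104 CPM in sgHDAC7 against 100.4, 85.5 and 98.3 CPM in sgNT (log2 fold change 0.06 ± 0.08, edgeR adjusted p = 0.716). The groups overlapped for each of these genes. PSMB1, a structural subunit, had 211, 209 and 231 CPM in sgHDAC7 against 217, 195 and 202 CPM in sgNT.

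The immunoproteasome genes, which replace those catalytic subunits in cells exposed to interferon, were far below their constitutive counterparts in both groups. Per kilobase of coding sequence PSMB8 stood at 15.5% ± 3.37 of PSMB5 in sgHDAC7 and 15.8% ± 1.98 in sgNT. PSMB10 stood at 16.9% ± 3.21 of PSMB7 in sgHDAC7 and 14.3% ± 2.08 in sgNT. PSMB9 stood at 3.65% ± 1.22 of PSMB6 in sgHDAC7 and 1.92% ± 1.10 in sgNT (SD, n = 3 each). The difference between the group means was smaller than the larger SD for PSMB8 and PSMB10. For PSMB9 it exceeded both SDs, but the libraries overlapped, at 2.84%, 3.06% and 5.06% in sgHDAC7 against 2.15%, 0.72% and 2.89% in sgNT.

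PSMB8 was high in replicate 1 of both groups, with 33.6, 23.0 and 25.8 CPM in sgHDAC7 against 33.0, 24.8 and 24.7 CPM in sgNT. Its log2 fold change was 0.00 ± 0.17 (edgeR adjusted p = 0.998, 95% interval -0.37 to 0.37). PSMB9 had 1.37, 1.47 and 2.67 CPM in sgHDAC7 against 1.19, 0.36 and 1.43 CPM in sgNT. These rest on 17, 17 and 33 counts in sgHDAC7 and 12, 4 and 15 counts in sgNT, where 3 counts correspond to 0.24 to 0.299 CPM. At 0.90 ± 0.49 its log2 fold change was the largest among the 47 genes, with an interval from -0.19 to 1.99 and an edgeR adjusted p of 0.352, so a change was not resolved at this depth. PSMB10 had 18.3, 17.4 and 13.6 CPM in sgHDAC7 against 12.0, 13.7 and 14.2 CPM in sgNT (log2 fold change 0.31 ± 0.15, edgeR adjusted p = 0.305, 95% interval -0.03 to 0.64). Its groups overlapped through sgHDAC7 replicate 3.

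PSMB8 (chr6:32840717-32844703, minus strand, GRCh38) and PSMB9 (chr6:32844136-32859585, plus strand) overlap each other and the long non-coding RNA PSMB8-AS1 in the GENCODE annotation. Strand use is not given in the sources used here, so reads from the overlap cannot be told apart. PSMB8-AS1 itself had 5 to 9 counts a library and was not tested.

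**Figure D2:**
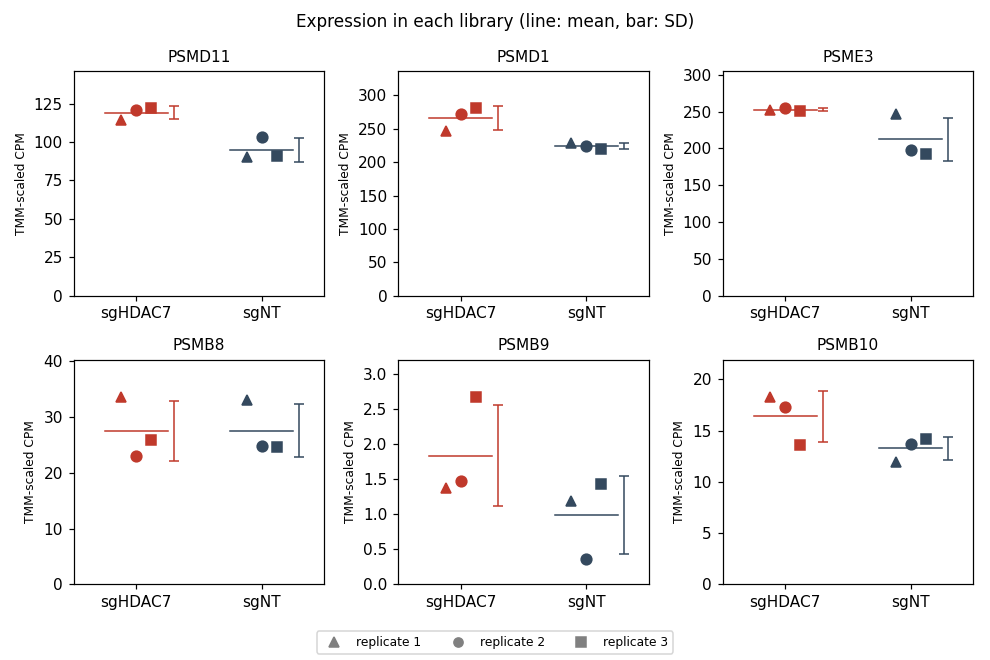
TMM-scaled CPM of 6 proteasome genes in each library, with the mean as a line and the SD as a bar (n = 3), sgHDAC7 left of sgNT and replicates as symbols. PSMD11, PSMD1 and PSME3 do not overlap between the groups, PSME3 only because sgNT replicate 1 at 246 CPM lies just below sgHDAC7 at 250.2 CPM, and the immunoproteasome genes overlap.

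The ATPase ring, PSMC1 to PSMC6, needs a look at the sequences first. In the deposited table PSMC1 had 24, 51 and 31 counts in sgHDAC7 against 40, 18 and 24 in sgNT, the lowest of the 6 ATPases. The pseudogene PSMC1P1 had 2267, 1987 and 2271 counts in sgHDAC7 against 1688, 1781 and 1741 in sgNT. PSMC1 (chr14:90256495-90275429, plus strand, GRCh38) is a spliced gene, and PSMC1P1 (chr3:68635705-68637024, plus strand) is a processed pseudogene, an intronless copy of a messenger RNA. In the GENCODE 29 transcripts the 1320 bases of PSMC1P1 match the PSMC1 coding sequence at 1319 positions with no gap, an identity of 99.9%. The single difference is T885A, counted from 1 at the first base of the PSMC1 start codon with the PSMC1 base given first. It turns codon 295 of 440, a tyrosine codon, into a stop codon. The 120 bases around it are shown because they hold all that separates the copies over this length, with the differing base in capitals.
PSMC1: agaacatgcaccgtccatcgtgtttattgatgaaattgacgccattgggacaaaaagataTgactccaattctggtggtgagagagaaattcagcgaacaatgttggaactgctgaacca
PSMC1P1: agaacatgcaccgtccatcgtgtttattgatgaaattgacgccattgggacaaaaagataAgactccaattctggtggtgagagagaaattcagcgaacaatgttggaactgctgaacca
Of the 100-base windows of this PSMC1 stretch, 91.8% occur unchanged in PSMC1P1, and of the 150-base windows 87.2%. Reads from such windows do not show which copy they came from, and how the authors' counting treated them is not given in the sources used here. The PSMC1 transcript compared is 4448 bases long, and its bases outside these 1320 were not matched to the annotated pseudogene. How far the match accounts for the low PSMC1 count was not tested.

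A similar but smaller split was present for PSMC6. Its own row had 54.8, 54.2 and 54.5 CPM in sgHDAC7 against 52.6, 52.0 and 53.0 CPM in sgNT. Its pseudogene PSMC6P1 had 87.3, 82.1 and 97.3 CPM in sgHDAC7 against 76.9, 91.1 and 85.2 CPM in sgNT. The parent row thus took 38.0% of the summed signal in sgHDAC7 and 38.4% in sgNT. For PSMC1 the parent row took 1.62% in sgHDAC7 and 1.57% in sgNT.

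Adding the pseudogene row to its parent brought PSMC1 into the range of the other ATPases in both groups. PSMC6 came into that range in sgNT and just under it in sgHDAC7. The sequences of PSMC6 and PSMC6P1 were not compared. PSMC1 plus PSMC1P1 came to 138 ± 4.20 CPM per kilobase of coding sequence in sgHDAC7 and 126 ± 3.49 in sgNT. PSMC6 plus PSMC6P1 came to 119 ± 6.46 in sgHDAC7 and 113 ± 5.75 in sgNT. PSMC2, PSMC3, PSMC4 and PSMC5 ran from 121 to 195 CPM per kilobase in sgHDAC7 and from 110.4 to 178 in sgNT. Without the pseudogene rows PSMC1 stood at 2.23 ± 0.98 CPM per kilobase in sgHDAC7 and 1.98 ± 0.91 in sgNT, and PSMC6 at 45.1 ± 0.22 in sgHDAC7 and 43.5 ± 0.40 in sgNT (SD, n = 3 each). Which locus is transcribed was not tested.

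**Figure D3:**
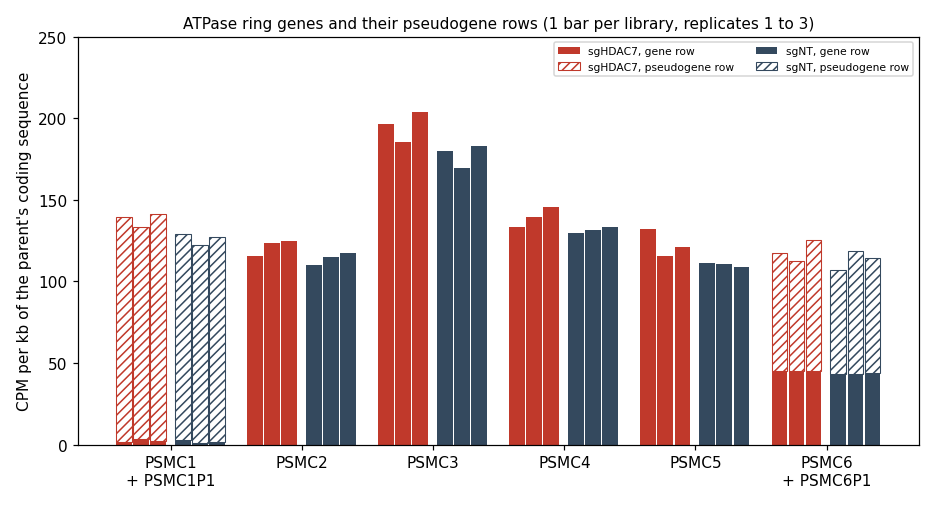
CPM per kilobase of coding sequence for the 6 ATPase genes, 1 bar per library with replicates 1 to 3 from left to right and sgHDAC7 left of sgNT. The filled part is the gene's own row and the hatched part is the row of its pseudogene, which makes up nearly all of the PSMC1 bar and the larger share of the PSMC6 bar.

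All 6 ATPase rows had log2 fold changes above 0, from 0.05 for PSMC6 to 0.17 for PSMC1, and 0 were called. PSMC5 had 161, 141 and 147 CPM in sgHDAC7 against 136, 135 and 133 CPM in sgNT (log2 fold change 0.16 ± 0.07, edgeR adjusted p = 0.259). PSMC3 had 259, 244 and 269 CPM in sgHDAC7 against 237, 223 and 241 CPM in sgNT (log2 fold change 0.14 ± 0.07, edgeR adjusted p = 0.287). All sgHDAC7 libraries were above all sgNT libraries for both. The PSMC1P1 row differed by 0.13 ± 0.06 on the log2 scale (edgeR adjusted p = 0.294), and PSMC1 with its pseudogene rows PSMC1P1 and PSMC1P5 added gave 0.13 ± 0.06 (edgeR adjusted p = 0.282).

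Among the 11 non-ATPase subunits of the regulatory particle the median log2 fold change was 0.08, and PSMD11 and PSMD1 differed most. PSMD11, a scaffold subunit of the lid, had 114, 121 and 122 CPM in sgHDAC7 against 90.0, 104 and 90.9 CPM in sgNT. All sgHDAC7 libraries lay above all sgNT libraries, and the log2 fold change was 0.33 ± 0.08 (95% interval 0.16 to 0.50). The edgeR adjusted p was 0.0516, just short of the threshold, and 0.00549 with the replicate 1 term (log2 fold change 0.33). Over 18 alternative settings the adjusted p of PSMD11 ran from 0.000818 to 0.209, and 7 of them called it. PSMD1, the largest subunit of the base and a docking site for ubiquitin-processing factors, had 246, 272 and 281 CPM in sgHDAC7 against 229, 225 and 220.0 CPM in sgNT. Its log2 fold change was 0.25 ± 0.07 (edgeR adjusted p = 0.0867, 95% interval 0.09 to 0.40), and 0.24 with the replicate 1 term (edgeR adjusted p = 0.0178, range over the alternatives 9.64e-05 to 0.281). Between the replicate 1 libraries the log2 ratio was 0.34 for PSMD11 and 0.10 for PSMD1, against 0.32 and 0.31 between replicates 2 and 3.

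PSMD4, a receptor for ubiquitin chains, had 136, 136 and 134 CPM in sgHDAC7 against 124, 117 and 122 CPM in sgNT (log2 fold change 0.17 ± 0.06, edgeR adjusted p = 0.172, or 0.0674 once the replicate 1 term was added). PSMD14, the deubiquitinase of the lid, had the lowest log2 fold change of this group, with 127, 125 and 126 CPM in sgHDAC7 against 143, 133 and 122 CPM in sgNT. Its log2 fold change was -0.08 ± 0.07 (edgeR adjusted p = 0.614, 95% interval -0.24 to 0.08). PSMD2, the member with the highest CPM, had 534, 576 and 558 CPM in sgHDAC7 against 532, 519 and 534 CPM in sgNT. PSMD3, PSMD6, PSMD7, PSMD8, PSMD12 and PSMD13 had log2 fold changes between -0.01 and 0.08.

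Among the activators, PSME3 stood out. It encodes a nuclear activator that opens the core without ubiquitin or ATP. PSME3 had 253, 255 and 250.2 CPM in sgHDAC7 against 246, 198 and 193 CPM in sgNT. The sgHDAC7 libraries were tightly grouped, and sgNT replicate 1 lay close to them. The log2 fold change was 0.25 ± 0.09 (edgeR adjusted p = 0.178, 95% interval 0.04 to 0.46), and 0.26 with the replicate 1 term (edgeR adjusted p = 0.0277, range over the alternatives 1.14e-05 to 0.426). Between the replicate 1 libraries the log2 ratio was 0.04, against 0.37 between replicates 2 and 3, while the replicate 1 term assumes 1 difference for both. Without sgNT replicate 1 the log2 fold change was 0.37 (edgeR adjusted p = 0.00223).

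PSME1 and PSME2 encode the interferon-induced activator that pairs with the immunoproteasome. PSME1 had 139.9, 135 and 143 CPM in sgHDAC7 against 136, 159.6 and 141 CPM in sgNT (log2 fold change -0.06 ± 0.08, edgeR adjusted p = 0.711). PSME2 had 51.2, 48.5 and 50.0 CPM in sgHDAC7 against 50.0, 49.2 and 50.5 CPM in sgNT (log2 fold change 0.00 ± 0.07, edgeR adjusted p = 0.998, 95% interval -0.16 to 0.17). PSME4, a large nuclear activator, had 257, 269 and 252 CPM in sgHDAC7 against 276, 249 and 243 CPM in sgNT (log2 fold change 0.02 ± 0.07, edgeR adjusted p = 0.914). PSMF1, which binds the core and inhibits it in the test tube, had 185, 198 and 198 CPM in sgHDAC7 against 167, 205 and 198 CPM in sgNT (log2 fold change 0.03 ± 0.08, edgeR adjusted p = 0.895). The groups overlapped for all 4 of these genes.

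The 7 assembly chaperones had log2 fold changes from -0.15 to 0.16 and 0 calls. PSMD9, a chaperone of the ATPase base, had 43.3, 52.8 and 54.6 CPM in sgHDAC7 against 40.5, 45.4 and 48.6 CPM in sgNT (log2 fold change 0.16 ± 0.11, edgeR adjusted p = 0.462). PSMD10, another base chaperone also known as gankyrin, had 44.1, 44.4 and 45.1 CPM in sgHDAC7 against 44.7, 54.4 and 49.1 CPM in sgNT (log2 fold change -0.15 ± 0.09, edgeR adjusted p = 0.401). PSMG1, which pairs with PSMG2 to build the alpha ring, was the most abundant chaperone, with 310.2 ± 16.4 CPM per kilobase of coding sequence in sgHDAC7 and 303 ± 6.34 in sgNT. PSMG2 stood at 70.0 ± 4.05 in sgHDAC7 and 68.4 ± 5.98 in sgNT (SD, n = 3 each).

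**Figure D4:**
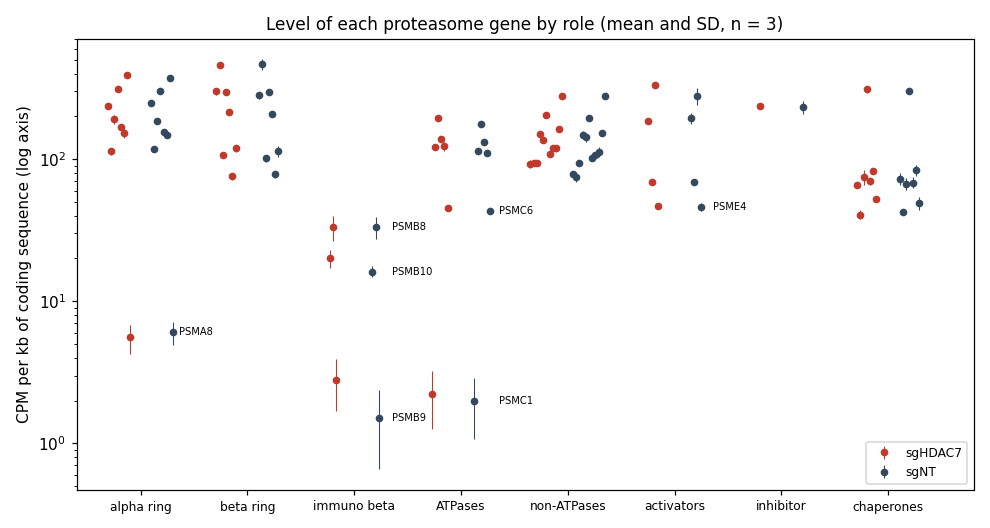
Mean CPM per kilobase of coding sequence with its SD (n = 3) for each protein-coding proteasome gene by role, on a log axis, sgHDAC7 left of sgNT. Constitutive core genes lie between 75.6 and 463 CPM per kilobase in sgHDAC7 apart from PSMA8, while PSMB9, PSMC1 and PSMA8 lie below 10.

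Levels per coding length showed how uneven the messenger RNAs of a complex with fixed stoichiometry were. Constitutive beta genes ran from 75.6 CPM per kilobase (PSMB6) to 463 (PSMB2) in sgHDAC7, and from 78.3 to 465 in sgNT. The non-ATPase group was narrower, from 93.1 (PSMD1) to 279.6 (PSMD8) in sgHDAC7 and from 74.9 (PSMD11) to 277 (PSMD8) in sgNT. Coding length leaves out the untranslated regions that also give reads, so genes with long ones are set too high on this scale. PSMD11 ranked 30 of 47 in sgHDAC7 and 34 of 47 in sgNT, and PSME3 ranked 3 in sgHDAC7 and 7 in sgNT.

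Promoters were read for the 3 members called higher with the replicate 1 term. These are the RefSeq windows on GRCh38.p14, from 250 bases before to 50 after the annotated start, given 5′ to 3′ on the gene's strand. Capitals mark a match to the antioxidant response element, TGACNNNGC on either strand, which NFE2L1 is known to bind.
PSMD1, chr2:231056617-231056916, plus strand: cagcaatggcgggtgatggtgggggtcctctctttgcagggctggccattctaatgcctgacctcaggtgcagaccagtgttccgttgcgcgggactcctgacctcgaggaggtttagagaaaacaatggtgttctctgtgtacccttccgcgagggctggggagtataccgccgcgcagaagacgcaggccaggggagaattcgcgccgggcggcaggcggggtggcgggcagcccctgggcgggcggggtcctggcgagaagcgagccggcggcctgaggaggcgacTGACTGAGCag
PSMD11, chr17:32444260-32444559, plus strand: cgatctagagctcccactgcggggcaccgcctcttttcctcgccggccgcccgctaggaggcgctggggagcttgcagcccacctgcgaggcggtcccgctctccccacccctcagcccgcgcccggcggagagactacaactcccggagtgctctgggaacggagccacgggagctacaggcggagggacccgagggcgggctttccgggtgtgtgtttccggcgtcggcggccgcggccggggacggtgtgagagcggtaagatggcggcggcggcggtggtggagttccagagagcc
PSME3, chr17:42833147-42833446, plus strand: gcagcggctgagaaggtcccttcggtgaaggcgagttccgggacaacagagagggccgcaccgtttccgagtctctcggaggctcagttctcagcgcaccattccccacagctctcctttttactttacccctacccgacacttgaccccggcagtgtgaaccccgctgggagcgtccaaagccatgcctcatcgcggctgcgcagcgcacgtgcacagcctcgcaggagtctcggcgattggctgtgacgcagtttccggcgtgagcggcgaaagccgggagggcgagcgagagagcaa
PSMD1 holds 1 match, beginning 40 bases into the transcript, and no match is present in these windows of PSMD11 and PSME3. RefSeq windows were found for 41 of the 47 genes, and 15 of the 41 (36.6%) held a match, against 16.1% of 27305 genes in that table. The median log2 fold change was 0.04 for the 15 genes with a match and 0.05 for the 26 without. The CCAAT box, searched as CCAAT on both strands, was present for 19 of the 41 (46.3%), PSME3 among them, against 39.7% of all genes. The response element can share bases with AP-1 sites, which also begin with TGAC. A match in letters is a description and does not show binding.

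Few genes of the wider pathway were called with group alone, and more with the replicate 1 term, as over all genes. That term raised the share of all tested genes called higher from 1.16% to 5.78%, and the share called lower from 1.70% to 6.81%. In the list of NFE2L1 and its partners, 1 of 14 tested genes was called higher and 1 lower, and 3 higher and 2 lower with that term. MAFG, a small MAF partner of NFE2L1 and NFE2L2, had 144, 142 and 134 CPM in sgHDAC7 against 109, 112 and 117 CPM in sgNT and rose (log2 fold change 0.31 ± 0.06, edgeR adjusted p = 0.0366). MAFF, another small MAF protein, fell to 6.52, 4.06 and 5.75 CPM in sgHDAC7, against 16.7, 13.8 and 13.1 CPM in sgNT (log2 fold change -1.41 ± 0.20, edgeR adjusted p = 0.0105). NFE2L1 itself had 192, 195 and 183 CPM in sgHDAC7 against 182, 188 and 185 CPM in sgNT (log2 fold change 0.04 ± 0.06, edgeR adjusted p = 0.798). NFE2L2, its relative in the oxidative stress response, had 93.0, 116 and 116 CPM in sgHDAC7 against 106, 159 and 159 CPM in sgNT. It was not called with group alone (log2 fold change -0.39 ± 0.15, edgeR adjusted p = 0.201), but with the replicate 1 term its log2 fold change of -0.37 was called (edgeR adjusted p = 0.00311). NPLOC4 and VCP, which work together to extract ubiquitin-tagged proteins, were also called with that term, at 0.23 and 0.18 on the log2 scale (edgeR adjusted p = 0.0135 and 0.0498).

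Of 6 further subunits and assembly factors outside the symbol rule, 0 were called. ADRM1, a ubiquitin receptor of the regulatory particle, had 144, 147 and 149 CPM in sgHDAC7 against 134, 98.6 and 106 CPM in sgNT (log2 fold change 0.38 ± 0.10, edgeR adjusted p = 0.0854). With the replicate 1 term its log2 fold change was 0.39 and was called (edgeR adjusted p = 0.00839), and it is named after its values were seen. Of 15 ubiquitin enzymes and shuttle factors bound to the proteasome 0 were called, and 1 with the replicate 1 term, the ligase UBE3C (log2 fold change 0.25, edgeR adjusted p = 0.0177). Of 6 ubiquitin and E1 genes 0 were called, and with that term RPS27A, which encodes ubiquitin fused to a ribosomal protein, was called lower (log2 fold change -0.38, edgeR adjusted p = 0.0318). In the list of antigen processing genes 1 of 16 was called, the chaperone CALR (log2 fold change 0.25 ± 0.06, edgeR adjusted p = 0.0476). With the replicate 1 term B2M, the light chain of class I antigen-presenting molecules, was called lower (log2 fold change -0.24, edgeR adjusted p = 0.0124). Of 13 heat shock genes 4 were called, all higher, and 7 with the replicate 1 term, which added DNAJB1, HSPA8 and BAG3 (edgeR adjusted p = 0.00564, 0.00439 and 0.0105). HSPB1, a small heat shock protein, rose by 0.70 ± 0.09 on the log2 scale (edgeR adjusted p = 0.00637). HSPA1A, HSPA1B and HSP90AA1 rose by 1.35 ± 0.25, 1.36 ± 0.27 and 0.38 ± 0.09 (edgeR adjusted p = 0.028, 0.0319 and 0.04997, the last only just under the threshold). These averages join unequal differences, since HSPA1A, HSPA1B and HSP90AA1 differed by 0.30, 0.19 and 0.11 (log2) in replicate 1, against 1.86, 1.86 and 0.50 in replicates 2 and 3. DNAJB1, HSPA8 and BAG3 likewise differed by 0.14, 0.11 and 0.09 in replicate 1, against 0.89, 1.13 and 0.75 in replicates 2 and 3. The replicate 1 term assumes 1 difference for both. HSPA1A and HSPA1B are near-identical in sequence, so the division of reads between their rows is uncertain. The calls of MAFG, MAFF, CALR and the heat shock genes were lost when some single libraries were left out, with the same sign throughout. Some were also lost with all libraries kept. Robust edgeR did not call HSPA1A and HSPA1B (adjusted p = 0.13 and 0.153). CALR and HSP90AA1 were not called under library-size or upper-quartile scaling, or by limma-trend. Without sgHDAC7 replicate 2 none of the 7 was called, with edgeR adjusted p from 0.0582 for HSPB1 to 0.213 for HSP90AA1.

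The remaining rows of the 63 were mostly low. PSMG3-AS1 had 1.85, 2.59 and 2.67 CPM in sgHDAC7 against 1.88, 0.90 and 0.95 CPM in sgNT (log2 fold change 0.94 ± 0.37, edgeR adjusted p = 0.201). PSMD6-AS2 had 1.21, 2.59 and 1.46 CPM in sgHDAC7 against 2.57, 2.97 and 3.23 CPM in sgNT (log2 fold change -0.74 ± 0.33, edgeR adjusted p = 0.261). PSMA3-AS1 averaged 25.7 ± 2.69 CPM in sgHDAC7 against 29.6 ± 2.21 CPM in sgNT (SD, n = 3 each). Each of these RNAs overlaps the coding gene it is named for, and without known strand use their reads cannot be told apart. Among the 9 tested pseudogenes the log2 fold changes ran from -0.33 for PSME2P1 to 0.41 for PSMC1P5, and 0 were called. Both proteins that share only the prefix, PSMC3IP, a recombination protein, and PSME3IP1, a partner of the PSME3 protein, had log2 fold changes of 0.15 and 0.06. PSME2P6 had 3 to 12 counts a library and was not tested, and the values of PSMA6P1 are not reported here.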

How the data were processed

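Messenger RNA of 6 F36P libraries was captured on poly-T beads, per the labels' protocols. The authors deposited 1 table whose name says CPM, but 100% of the deposited values are whole and column totals differ, so they were treated as read counts per gene. Per the submitters' processing notes, build hg38 and edgeR 3.32.1 were used. For the aligner, counter, annotation and strand setting the sources used here give nothing. The table has 0 further value columns.

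edgeR 4.0.16 (R 4.3.3), quasi-likelihood test, TMM scaling and group as the only term, was run on the 13841 genes with a mean of at least 1 CPM, two-sided, with Benjamini-Hochberg adjustment over all of them. CPM values are TMM-scaled. Errors of log2 fold changes are the fold change over the square root of F, and 95% intervals use the fit's moderated degrees of freedom. The labels do not say whether replicates were grown apart, so p-values measure the spread between these libraries. Replicate pairs differed beyond counting noise, by a chi-square per degree of freedom of 3.24 to 15.6. Coding lengths come from principal transcripts of GENCODE 29, and positions from it or, for genes without an entry there, RefSeq. Columns named NC were taken as sgNT, the only other group. Alternatives used limma 3.58.1 and DESeq2 1.42.0. The scripts were tested on simulated data.

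Members and lists were chosen with earlier results of these data known. By rule, values per library are given for members called with the replicate 1 term at a log2 fold change of 0.3 or more, the immunoproteasome and its counterparts, activators, the inhibitor and the extremes of each role. From other lists, up to 4 called genes each, HDAC7, NFE2L1 and NFE2L2 are named. PSMA7, PSMC3, PSMC5, PSMD1, PSMD2, PSMD4, other genes called only with the replicate 1 term, the antisense RNAs and the 2 ATPase pseudogenes were added with their values in view. Some genes of the other lists that were called with the replicate 1 term are not reported here.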

Additional observations from a re-analysis of the deposited data

How the results depend on the processing

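The count of members called lower was 0 in the analysis and under each of 18 alternatives. Members called higher numbered 0 in the analysis. They numbered 1 (PSMD11) under upper-quartile scaling, DESeq2, robust edgeR or the replicate block, 3 with the replicate 1 term, and 6 on replicates 2 and 3 alone. With single libraries left out they numbered 0 to 4, the 4 without sgNT replicate 1 (PSMD11, PSMD1, PSME3 and PSMG3-AS1). The adjusted p of PSMD11 ran from 0.000818 to 0.209, that of PSMD1 from 9.64e-05 to 0.281 and that of PSME3 from 1.14e-05 to 0.426, and each of the 3 stayed higher in sgHDAC7 under all 18. Genes called over all tested numbered 396 in the analysis. They numbered 718 with DESeq2, 998 with the replicate block, 1743 with the replicate 1 term, 2847 on replicates 2 and 3 alone, and 27 to 1588 with single libraries left out. The median log2 fold change of the protein-coding genes was 0.089 on replicates 2 and 3 alone, against 0.05 with all libraries, and the median log2 ratio between the replicate 1 libraries was 0.0067. HDAC7 kept its call and sign under each alternative. Among the 37 named members, signs changed in 36 cases over the alternatives, each without a call, most often for PSMB8 and PSME2. Among the 21 named genes outside the family no sign changed, and 37 values of the 7 called ones missed the threshold, most of them with a library left out. Replicate numbers were not taken as pairs, since same-numbered libraries correlated at 0.303, 0.107 and 0.0968 in their deviations and the last is under 0.1, and sgHDAC7 replicates 2 and 3 correlated better with the other number (0.16 each). The cause of these differences between settings was not tested. Adding pseudogene counts to their parents was chosen after seeing the data, and it left 0 members called. Low counts limit PSMB9 and PSMA8. With PSMC1, whose low count was not explained by a test, they have the widest intervals among the protein-coding genes, while PSMG3-AS1 and PSMD6-AS2 have wider ones than PSMA8.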
